A study of Homo sapiens with 6 samples.

Results

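The transcripts described here are 10 non-coding host genes of small nucleolar RNAs (snoRNAs): SNHG1, SNHG3, SNHG5, SNHG6, SNHG7, SNHG8, SNHG12, SNHG15, SNHG16 and GAS5. They were chosen by name, and all 10 were found by symbol and Ensembl identifier among the 28495 genes of the authors' table. RNA was sequenced from NCI-H1299, an established human lung cancer cell line whose source the labels give as lung adenocarcinoma, in 3 libraries of cells with complement factor B (CFB) silenced (sh-CFB) and 3 of control cells (sh-NC). The column names of the table resemble those of siRNA samples, whereas the sample titles point to short hairpins, and the form of the reagent is not settled here. Separate cultures are not stated for the libraries of a group. P-values therefore measure only the spread between samples that may be technical replicates. The question taken from the design text is which transcripts differ when CFB is silenced.

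A snoRNA host gene is transcribed and spliced like a messenger RNA gene, and its snoRNAs are cut out of the introns. Box C/D snoRNAs guide ribose methylation and box H/ACA snoRNAs guide pseudouridylation, mainly of ribosomal RNA. The spliced exons of the hosts carry only short reading frames. Many hosts begin with a run of pyrimidines (a TOP start), which ties translation of an RNA to growth signalling, and spliced GAS5 and several SNHG transcripts are known substrates of nonsense-mediated decay, which couples their level to translation. The library kit selects poly(A) RNA, so the values below are those of the spliced or unspliced host RNA, not of the snoRNAs.

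The starts of 4 hosts are shown: SNHG7 and SNHG1, which had the largest differences below, SNHG12, which has the longest run of pyrimidines, and SNHG5, which could not be tested. The RefSeq promoter table (GRCh38.p14) held 8 of the 10 hosts, all but SNHG6 and SNHG15. Each line gives the 50 bases before and the 50 bases from the annotated start on, 5′ to 3′ on the strand of the gene. Capitals mark the unbroken run of C and T that holds the start base and, where present, the letters TATAA. SNHG7 lies on the reverse strand at chr9:136728135-136728234, SNHG1 on the reverse strand at chr11:62855836-62855935, SNHG12 on the reverse strand at chr1:28581824-28581923 and SNHG5 on the reverse strand at chr6:85678684-85678783.
SNHG7: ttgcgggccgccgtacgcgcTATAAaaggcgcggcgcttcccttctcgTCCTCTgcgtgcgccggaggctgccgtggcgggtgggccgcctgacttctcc
SNHG1: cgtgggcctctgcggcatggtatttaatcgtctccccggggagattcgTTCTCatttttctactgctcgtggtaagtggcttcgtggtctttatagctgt
SNHG12: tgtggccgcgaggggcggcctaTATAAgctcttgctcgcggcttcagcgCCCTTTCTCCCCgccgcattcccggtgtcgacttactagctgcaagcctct
SNHG5: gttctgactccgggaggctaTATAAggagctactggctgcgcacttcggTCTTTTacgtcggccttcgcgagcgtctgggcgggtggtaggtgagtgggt

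The pyrimidine run was 12 bases long at SNHG12, 6 at SNHG5, SNHG7 and SNHG8, and 5 at SNHG1, while the RefSeq start base of SNHG3, SNHG16 and GAS5 is a purine. These readings depend on the start chosen. The RefSeq start of GAS5 (173869045) lies outside its GENCODE 29 gene, which ends at 173868882. That of SNHG12 (28581873) lies inside its GENCODE 29 gene, which ends at 28583132. Runs at other starts were not examined. A run of at least 6 bases was found at 4 of the 8 hosts and at 7.41% of the 35116 promoters in the table. The letters TATAA, on either strand between 45 and 16 bases before the start, were found at the same 4 hosts (SNHG5, SNHG7, SNHG8 and SNHG12) and at 5.04% of all promoters. The letters CACGTG, an E-box, on either strand in the whole window of 300 bases, were found at 1 host, SNHG7, at position -122 from its start, and at 7.26% of all promoters. These matches describe letters near an annotated start and show neither a bound factor nor a start used in these cells.

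GENCODE 29 placed 22 separate snoRNA loci inside 9 of the hosts and 0 inside GAS5. These counts are those of this annotation release, and the 0 does not mean that GAS5 hosts no snoRNAs. SNHG7 held 2 loci, both of the H/ACA class, and SNHG1 held 7. A snoRNA of each of these hosts is printed because they are the hosts with the largest differences below. SNORA17A lies in SNHG7 at chr9:136726747-136726879 and SNORD27 in SNHG1 at chr11:62855012-62855083, both on the reverse strand of GRCh38. Capitals mark the ACA that stands 3 bases before the end of SNORA17A, and the letters TGATGA (box C) and CTGA (box D) in SNORD27.
SNORA17A: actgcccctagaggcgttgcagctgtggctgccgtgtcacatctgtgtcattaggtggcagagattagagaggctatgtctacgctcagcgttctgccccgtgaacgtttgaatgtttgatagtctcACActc
SNORD27: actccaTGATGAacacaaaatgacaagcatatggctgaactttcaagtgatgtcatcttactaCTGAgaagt

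FPKM is a fragment count divided by the length of the gene and the size of the library. Recovered depth ran from 26.2 to 40.03 M reads per library, and log2 values correlated across genes at 0.975 to 0.991 within groups and at 0.95 to 0.982 between groups. The libraries also varied within groups in a way tied to base composition. Across genes, the Spearman correlation between GC content and a library's deviation from the mean of 6 was 0.60 in sh-CFB replicate 1, -0.55 in sh-NC replicate 1 and 0.23 in sh-NC replicate 3, and the other 3 libraries lay between -0.25 and -0.10. The log2 difference (sh-CFB minus sh-NC) of the median tested gene was -0.15, and median-of-ratios factors moved it to 0.02. Differences are therefore given as deposited and, where stated, as trend-corrected values, from which each library's trend on GC content and gene length was removed. CFB itself, the silenced gene, had 0, 0 and 2 reads in sh-CFB against 1, 6 and 5 reads in sh-NC, too few to check the labels library by library. Of 5 epithelial markers 2 passed the filter (KRT18 at 173 ± 34.4 FPKM in sh-NC and 163 ± 35.3 in sh-CFB, SD, n = 3 each). The summed FPKM of the listed alveolar and lung markers reached at most 0.679 in any library, of immune markers 0.0758, of fibroblast markers 0.324, of endothelial markers 0.196 and of erythroid markers 0.143.

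SNHG7 rose in sh-CFB, and 8 other tested hosts did not pass the test in either direction. Of the 10 hosts, 9 had a mean FPKM of at least 0.5 and were tested, and SNHG5 was below that. The 1 call among 9 stands beside 7.45% of all 12466 tested genes, 1.74% higher and 5.71% lower, at a Benjamini-Hochberg adjusted p of 0.05 in limma. At an unadjusted p under 0.05 in limma there were 3 hosts, SNHG7, SNHG6 and SNHG1, the last of them lower. For this and the later counts at an unadjusted p, the share over all tested genes is not given here. Such counts therefore cannot be set against a background. By voom on recovered reads, SNHG7 alone of the hosts was called, beside 677 of 12458 genes, 146 higher and 531 lower. Among the 929 tested long non-coding genes, 3.01% were called, 1.08% higher and 1.94% lower. The median difference of the 9 hosts was 0.14, with 6 hosts above 0 and 3 below, against -0.15 for all tested genes. The trend-corrected median was 0.39, with 7 above 0 and 2 below, against 0.01, and 2 hosts rose, SNHG7 and SNHG6, where 10.8% of all genes were called, 4.69% higher and 6.1% lower.

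**Figure D1:**
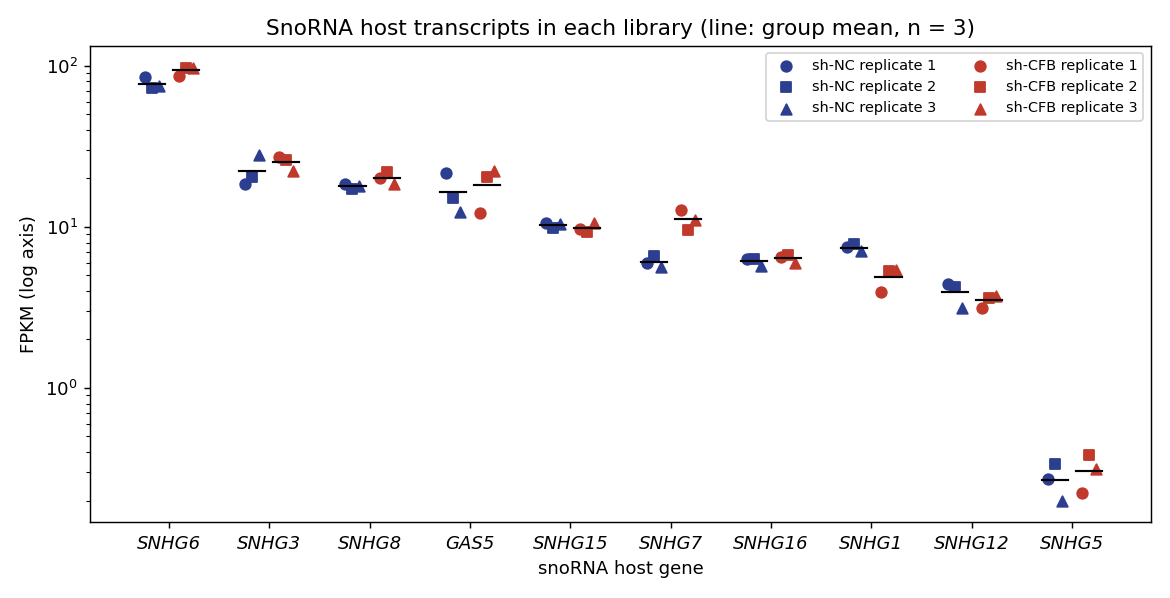
FPKM of the 10 snoRNA host genes (log axis) in each library, ordered by mean; red points are sh-CFB and blue points sh-NC libraries, the symbol gives the replicate and the black line the mean of 3. SNHG7 is higher in all 3 sh-CFB libraries (9.58 to 12.8) than in any sh-NC library (5.65 to 6.56), SNHG1 is lower in all 3, and GAS5 spreads as widely within groups as between them.

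The hosts covered a wide range of levels. SNHG6 had the highest mean FPKM over the 6 libraries (85.6), followed by SNHG3 (23.7), SNHG8 (19.1), GAS5 (17.3), SNHG15 (10.1), SNHG7 (8.61), SNHG16 (6.25), SNHG1 (6.17), SNHG12 (3.71) and SNHG5 (0.288). In that order SNHG6 and SNHG5 stood clear of their neighbours in every library, and so did GAS5 of SNHG15, while the library values of SNHG3, SNHG8 and GAS5 overlapped, as did those from SNHG15 down to SNHG12 between neighbours. The order depends on the gene length behind FPKM. The lengths recovered from the table exceeded the GENCODE 29 exon length by over 10% in 4 hosts: 6608 against 923 bases in SNHG8, 12604 against 2806 in SNHG5, 4842 against 3631 in GAS5 and 4891 against 4345 in SNHG7. With the same reads divided by the GENCODE 29 lengths, SNHG8 was highest at 137 FPKM, ahead of SNHG6 at 85.6, SNHG3 at 23.7 and GAS5 at 23.1. The length also enters the filter and, through the added 0.5, the size of a difference: SNHG5 would pass the filter with its GENCODE 29 length, and the SNHG7 difference was 0.86 with 0.1 added and 0.78 with 1 added.

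SNHG7 (ENSG00000233016, chromosome 9 from 136721366 to 136728184, reverse strand, GRCh38) is the host of SNORA17A and SNORA17B. Its FPKM was 12.8, 9.58 and 11.05 in sh-CFB replicates 1, 2 and 3 and 5.98, 6.56 and 5.65 in sh-NC replicates 1, 2 and 3, from 910 to 2076 reads per library. Every sh-CFB library was above every sh-NC library, and sh-CFB replicate 1, the library at the GC-rich end, was the highest. The means were 11.1 ± 1.62 and 6.06 ± 0.464 (SD, n = 3 each), and the difference was 0.82 on the log2(FPKM + 0.5) scale, or 1.77-fold (SE 0.14, adjusted p = 0.0170 with limma). An exact permutation test, two-sided, gave p = 0.1, the smallest that 3 libraries against 3 allow. At 65.9% GC its longest annotated transcript was the most GC-rich of the 10 hosts (lowest 42.0%, SNHG6), and the trend-corrected difference was 0.68 (SE 0.10, adjusted p = 0.0115). With median-of-ratios factors it was 1.01 with an adjusted p of 0.0516 in limma. The adjusted p in limma was 0.0574 without sh-CFB replicate 2, 0.0536 without sh-CFB replicate 3, 0.0547 without sh-NC replicate 1 and 0.0879 without sh-NC replicate 2, with differences from 0.81 to 0.92.

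The body of SNHG7 overlaps that of DIPK1B, a protein-coding gene on the opposite strand. DIPK1B had 8.60, 6.08 and 6.22 FPKM in sh-CFB against 5.13, 5.32 and 7.13 in sh-NC, with overlapping groups and a difference of 0.23 (adjusted p = 0.472 with limma). The kit marks strand, but the strand setting of the counting is not given in the sources used here, so how reads of the shared stretch were assigned is uncertain.

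SNHG1 (ENSG00000255717, chromosome 11 from 62851988 to 62855914, reverse strand) carries box C/D snoRNAs, among them SNORD22, SNORD25, SNORD26, SNORD27, SNORD28 and SNORD30. Its FPKM was 3.96, 5.30 and 5.43 in sh-CFB against 7.48, 7.78 and 7.06 in sh-NC. All 3 sh-CFB libraries were below the sh-NC libraries, with sh-CFB replicate 1 the lowest. The means were 4.90 ± 0.816 and 7.44 ± 0.364 (SD, n = 3 each) and the difference was -0.57 (SE 0.15), which did not pass (adjusted p = 0.0576 with limma; two-sided exact permutation p = 0.1). It passed when the filter was set to a mean FPKM of 1 (adjusted p = 0.0496 with limma). Trend-corrected, it was -0.30 (adjusted p = 0.0805), and with median-of-ratios factors -0.38 (adjusted p = 0.115), both with limma.

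The start of SNHG1 lies 188 bases from that of SLC3A2, transcribed in the opposite direction. SLC3A2 encodes the heavy chain that carries amino acid transporters such as SLC7A5 to the cell surface. Its FPKM was 46.5, 39.6 and 43.6 in sh-CFB against 72.3, 65.4 and 51.0 in sh-NC, below in all 3 sh-CFB libraries, with a difference of -0.52 (SE 0.14, adjusted p = 0.0646 with limma). Neither gene of this divergent pair passed the test, although SLC3A2 passed without sh-NC replicate 3 (-0.67, adjusted p = 0.0354 with limma).

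SNHG7 and SNHG1 stood on opposite sides of their means in every library. The ratio of their FPKM within a library, which no scaling of the library changes, was 3.24, 1.81 and 2.04 in sh-CFB against 0.799, 0.843 and 0.800 in sh-NC. This ratio was chosen after its values were seen. It was 2.36 ± 0.769 in sh-CFB and 0.814 ± 0.0251 in sh-NC (SD, n = 3 each), 2.81-fold apart on the log2 scale. The pair was picked for its opposite differences, so the ratio describes them and has no test of its own, and SNHG7 differs from SNHG1 in GC content (65.9% against 43.1%).

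**Figure D2:**
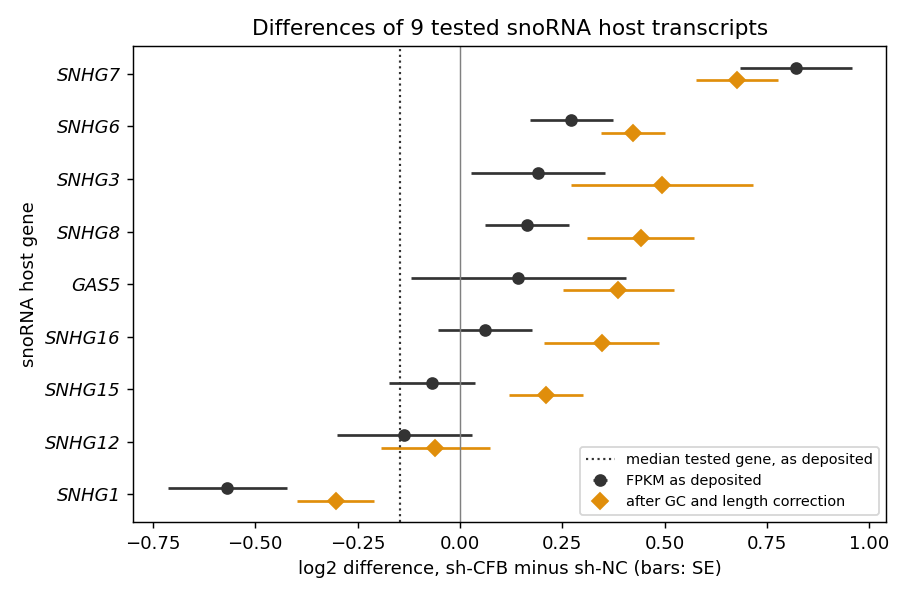
Log2 difference (sh-CFB minus sh-NC) of the 9 tested hosts with its SE, for FPKM as deposited (black circles) and trend-corrected (orange diamonds); the dotted line is the median of all tested genes as deposited. SNHG7 is at the top in both (0.82 and 0.68) and SNHG1 at the bottom (-0.57 and -0.30), and the correction moves SNHG7 down and the other 8 hosts up.

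SNHG6 (ENSG00000245910, chromosome 8 from 66921684 to 66926398, reverse strand) hosts SNORD87. It had 86.4, 97.0 and 97.6 FPKM in sh-CFB against 84.9, 72.4 and 75.3 in sh-NC. The lowest sh-CFB library was just above the highest sh-NC library, so the groups did not overlap. The means were 93.7 ± 6.32 and 77.6 ± 6.56 (SD, n = 3 each), a difference of 0.27 (SE 0.10) that did not pass as deposited (adjusted p = 0.145 with limma). The trend-corrected difference of 0.42 (SE 0.08) passed (adjusted p = 0.0195 with limma). Non-overlapping groups were found in 3 of the 9 tested hosts, SNHG6 and SNHG7 above and SNHG1 below, and in 33.7% of all tested genes.

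GAS5 (growth arrest specific transcript, ENSG00000234741, chromosome 1 from 173863900 to 173868882, reverse strand) was named for its accumulation in growth-arrested cells. Its FPKM was 12.2, 20.5 and 22.2 in sh-CFB against 21.5, 15.2 and 12.4 in sh-NC. A low and 2 high libraries in sh-CFB stood against a high and 2 lower ones in sh-NC, and the groups overlapped across almost their whole range. The difference was 0.14 (SE 0.26, adjusted p = 0.776 with limma; two-sided exact permutation p = 0.8). It was -0.02 without sh-CFB replicate 3 and -0.03 without sh-NC replicate 3. Without both libraries numbered 1 it was 0.61 and passed (adjusted p = 0.0378 with limma). Those 2 libraries are the ends of the GC axis given above.

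Other abundant long non-coding RNAs, from a list of mostly nuclear ones, were low in the same libraries. NORAD, which binds PUMILIO proteins, had 14.1, 30.6 and 32.3 FPKM in sh-CFB against 38.3, 25.7 and 18.1 in sh-NC. MALAT1, a nuclear speckle RNA, had 5.25, 14.1 and 13.6 in sh-CFB against 16.1, 8.91 and 5.32 in sh-NC. NEAT1, the scaffold of paraspeckles, had 2.58, 7.60 and 8.09 in sh-CFB against 8.49, 4.38 and 2.81 in sh-NC. MALAT1 and NEAT1 were named after their values were seen. For GAS5 and for these 3 RNAs, sh-CFB replicate 1 and sh-NC replicate 3 were the lowest libraries. These are also the libraries with the highest correlations of their deviations with GC content, and the longest GAS5 transcript has 42.2% GC. Of the hosts of like GC content, SNHG1 (43.1%) was also lowest within its groups in sh-CFB replicate 1 (3.96) and sh-NC replicate 3 (7.06). SNHG6 (42.0%) was lowest within its groups in sh-CFB replicate 1 (86.4) and sh-NC replicate 2 (72.4). Between groups, SNHG6 was higher in sh-CFB replicate 1 than in any sh-NC library. SNHG1 was higher in sh-NC replicate 3 than in any sh-CFB library. A role of GC content in these patterns was not tested. The trend-corrected GAS5 difference was 0.39 (adjusted p = 0.111 with limma).

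GAS5 is overlapped on the opposite strand by GAS5-AS1 and ZBTB37. GAS5-AS1 had 0.843, 1.14 and 0.959 FPKM in sh-CFB against 0.592, 0.767 and 0.522 in sh-NC, above in all 3 sh-CFB libraries but from only 14 to 31 reads, with a difference of 0.40 that did not pass (adjusted p = 0.194 with limma). ZBTB37, a zinc finger gene, lay between 0.102 and 0.369 FPKM, below the filter. MCMDC2, which overlaps SNHG6 on the opposite strand, reached at most 0.111 FPKM in any library. The pseudogene AL355987.5, which starts 1671 bases from SNHG7, had 0.186, 0.146 and 0 FPKM in sh-CFB against 0.987, 0.486 and 0.591 in sh-NC, from at most 16 reads, and AC015802.4 and AC015802.6 beside SNHG16 reached at most 0.217 and 0.0184.

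**Figure D3:**
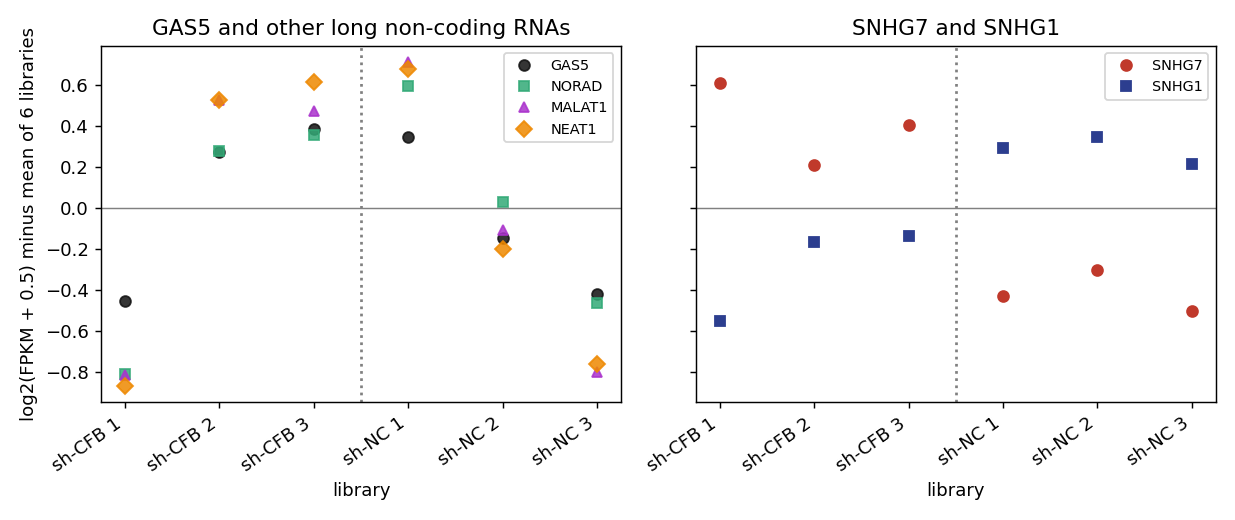
Log2(FPKM + 0.5) minus the mean of the 6 libraries, by library (sh-CFB left and sh-NC right of the dotted line). Left, GAS5 lies with NORAD, MALAT1 and NEAT1 below 0 in sh-CFB replicate 1 and sh-NC replicate 3; right, SNHG7 is above 0 in the 3 sh-CFB libraries and SNHG1 above 0 in the 3 sh-NC libraries.

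SNHG3 (ENSG00000242125, chromosome 1 from 28505980 to 28510892, forward strand) hosts SNORA73A and SNORA73B, copies of U17, which acts in ribosomal RNA cleavage. It had 27.1, 26.1 and 22.3 FPKM in sh-CFB against 18.4, 20.5 and 27.95 in sh-NC. The highest library of all was sh-NC replicate 3, while the other sh-NC libraries were below every sh-CFB library, and the difference was 0.19 (SE 0.16, adjusted p = 0.507 with limma). SNHG3 shares its strand and its start region with RCC1, the exchange factor of the RAN GTPase, whose annotated start lies 37 bases away and whose body contains it. RCC1 had 69.4, 67.9 and 63.2 FPKM in sh-CFB against 64.9, 69.8 and 70.6 in sh-NC, a difference of -0.03 (SE 0.09, adjusted p = 0.842 with limma) as deposited, 0.17 with median-of-ratios factors and 0.22 trend-corrected. How reads of the shared stretch fell between the 2 genes is uncertain.

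SNHG12 (ENSG00000197989, chromosome 1 from 28578538 to 28583132, reverse strand) is a neighbour of SNHG3 that hosts 4 snoRNA loci. It had 3.12, 3.64 and 3.75 FPKM in sh-CFB against 4.40, 4.24 and 3.13 in sh-NC. Its library order was nearly the mirror of that of SNHG3, with sh-CFB replicate 1 and sh-NC replicate 3 low, and the difference was -0.14 (SE 0.16, adjusted p = 0.652 with limma). The overlapping gene on the opposite strand, TRNAU1AP, a factor of selenocysteine incorporation, had 9.55, 12.3 and 12.8 FPKM in sh-CFB against 13.6, 13.8 and 16.1 in sh-NC (-0.32, adjusted p = 0.195 with limma).

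SNHG8 (ENSG00000269893, chromosome 4 from 118278709 to 118279823, forward strand), the host of SNORA24, had 20.1, 22.004 and 18.5 FPKM in sh-CFB against 18.6, 17.2 and 18.0 in sh-NC, with groups that overlapped by a narrow margin. The difference was 0.16 (SE 0.10, adjusted p = 0.358 with limma) and 0.44 when trend-corrected (adjusted p = 0.0709 with limma). On average it collected the most reads of the 10 hosts, 3483 to 4854 per library, over a recovered length 7.16 times that of its GENCODE 29 exons.

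SNHG15 and SNHG16 varied least. SNHG15 (ENSG00000232956, chromosome 7 from 44983023 to 44986961, reverse strand), the host of SNORA9, had 9.71, 9.24 and 10.6 FPKM in sh-CFB against 10.6, 9.88 and 10.5 in sh-NC. The difference was -0.07 (SE 0.11, adjusted p = 0.734 with limma). SNHG16 (ENSG00000163597, chromosome 17 from 76557766 to 76565348, forward strand), the host of SNORD1A, SNORD1B and SNORD1C, had 6.46, 6.72 and 5.997 in sh-CFB against 6.30, 6.28 and 5.73 in sh-NC. The difference was 0.06 (SE 0.12, adjusted p = 0.782 with limma). The coefficient of variation over the 6 libraries was 5.50% and 5.54%, against a median of 14.5% for the tested hosts and 23.0% for all tested genes, whereas it was 34.7% for SNHG7, 26.6% for GAS5 and 24.4% for SNHG1.

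SNHG5 (ENSG00000203875, chromosome 6 from 85660950 to 85678748, reverse strand), the host of SNORD50B, lay below the filter. Its FPKM was 0.224, 0.385 and 0.312 in sh-CFB against 0.272, 0.335 and 0.200 in sh-NC, or 74, 162 and 151 reads against 135, 169 and 83. The groups overlapped (two-sided exact permutation p = 0.6), and the low value goes with the longest recovered gene length of the 10 hosts. Divided by the GENCODE 29 exon length, the same reads gave a mean of 1.29 FPKM, which also left SNHG5 last.

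Summed over the 10 hosts, reads per M reads of the library were 578, 633 and 612 in sh-CFB against 565, 519 and 531 in sh-NC, above in all 3 sh-CFB libraries. The hosts did not vary as a block. Of the 36 pairs of tested hosts, 20 had a positive and 16 a negative Pearson correlation of log2 values, with a median of 0.12, and the extremes were SNHG3 with SNHG12 (-0.95) and SNHG6 with SNHG8 (0.71), with SNHG1 and SNHG7 at -0.94. These values describe 6 libraries that share the axis given above. The 5 genes whose values lay closest to the mean pattern of the hosts were UBE2B (0.986), SENP7 (0.978), TNFAIP8 (0.976), RPL22L1 (0.973) and KIAA1671 (0.969), by Pearson correlation over the same 6 libraries. The mean pattern itself was -0.11, 0.42 and 0.25 SD in sh-CFB and 0.16, -0.28 and -0.44 SD in sh-NC.

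The snoRNAs themselves were hardly measured. The table listed 3 of the snoRNA genes annotated inside the hosts. SNORA73B had 130, 41 and 26 reads in sh-CFB against 61, 17 and 39 in sh-NC, SNORD99 had 2, 0 and 2 against 18, 7 and 0, and SNORD1B had 1 read in all. Over the 156 snoRNA genes of the table, reads per M reads were 140, 43.7 and 41.5 in sh-CFB against 47.4, 18.3 and 33.999 in sh-NC, highest in sh-CFB replicate 1. In a poly(A)-selected library such reads do not measure the mature snoRNAs.

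Other non-coding snoRNA hosts did not pass the test as deposited: 0 of 15 tested rose or fell, and 4 of the 19 listed were below the filter. Beside this, 7.45% of all tested genes and 3.01% of the tested long non-coding genes were called. At such shares, 0 calls in a list this short say little about it. At an unadjusted p under 0.05 in limma 2 were higher and 1 lower, with no share over all genes given for that cut. By voom on recovered reads 0 were called as well, beside 677 of 12458 genes. The median difference was -0.04. SNHG19, the highest of them by FPKM though not by reads, had 162 ± 4.45 FPKM in sh-CFB and 130 ± 16.9 in sh-NC (SD, n = 3 each; 0.33, adjusted p = 0.125 with limma). In trend-corrected values SNHG29 (0.64, adjusted p = 0.00736 with limma) and EPB41L4A-AS1 (0.57, adjusted p = 0.0164 with limma) rose and SNHG9 (-0.70, adjusted p = 0.0407 with limma) fell, all 3 named after their values were seen. SNHG9 had only 29 to 65 reads per library, and its groups overlapped as deposited (adjusted p = 0.319 with limma). In trend-corrected values, 4.69% of all genes were higher and 6.1% lower.

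Protein-coding snoRNA hosts included genes that fell. Of 51 tested, 6 fell (11.8%), 0 rose and 45 did not pass, beside 5.71% of all tested genes lower and 1.74% higher. The members named by size were NOP56, a core protein of box C/D particles, at -1.03 (adjusted p = 0.00778), HSPA9, the mitochondrial HSP70, at -0.99 (adjusted p = 0.0218), and NCL, nucleolin, at -0.90 (adjusted p = 0.0414), all with limma. At an unadjusted p under 0.05 in limma, 7 were higher and 11 lower, with no share over all genes given for that cut. The list median was 0.07, against -0.15 for all tested genes. Trend-corrected, 9 rose and 7 fell, with a median of 0.23, where 4.69% of all genes were higher and 6.1% lower.

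Genes of proteins that build snoRNA particles fell in part at the RNA level, beside 5.71% of all tested genes lower and 1.74% higher. The proteins were not measured. Of the 8 core protein genes 3 fell and 0 rose: NOP56, DKC1, for the pseudouridine synthase of box H/ACA particles (-0.87, adjusted p = 0.0135), and GAR1, for its partner (-0.68, adjusted p = 0.0135). In sh-CFB NOP56 had 12.5 ± 1.44 FPKM against 25.9 ± 0.854 in sh-NC, DKC1 13.4 ± 2.13 against 24.9 ± 0.884 and GAR1 13.7 ± 1.09 against 22.2 ± 1.02 (SD, n = 3 each). Of 16 assembly factors 4 fell and 0 rose, among them NOLC1, which shuttles between nucleolus and Cajal bodies (-1.002, adjusted p = 0.0129), TTI1, of the TTT cochaperone (-0.99, adjusted p = 0.0173), and TCOF1, treacle (-0.82, adjusted p = 0.0120). The same counts, 3 and 4, fell in trend-corrected values, beside 6.1% of all genes, and there the list medians were -0.23 and -0.06, against -0.33 and -0.29 as deposited. The 4 assembly factors were not the same genes. RUVBL1 passed only as deposited (adjusted p = 0.0123, against 0.0666 trend-corrected). TELO2 passed only when trend-corrected (adjusted p = 0.0189, against 0.151 as deposited). All adjusted p-values are from limma.

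Genes of RNA decay factors also fell in part, beside 5.71% of all tested genes lower and 1.74% higher. An action of these factors on the hosts was not tested. Of 21 nonsense-mediated decay factor genes 5 fell (23.8%) and 0 rose, including the exon junction genes MAGOHB (-0.82, adjusted p = 0.0385), MAGOH (-0.75, adjusted p = 0.0230) and EIF4A3 (-0.63, adjusted p = 0.0135), with a list median of -0.38. EIF4A3 did not pass when trend-corrected (-0.33, adjusted p = 0.145), where 6 of the list fell and 1 rose, beside 6.1% and 4.69% of all genes. Of 21 exosome and exonuclease genes 4 fell (19.0%) and 0 rose, including EXOSC8 (-0.86, adjusted p = 0.0131), EXOSC2 (-0.82, adjusted p = 0.0117) and EXOSC3 (-0.70, adjusted p = 0.0368), with a median of -0.35. Trend-corrected, 3 genes of this exosome list fell and 0 rose, with a median of -0.09. With 1 library left out, neither EXOSC3 (adjusted p 0.0687 to 0.167) nor MAGOHB (0.0551 to 0.144) passed. Among 9 messenger RNAs known as decay substrates, GADD45B, a stress sensor, rose (0.70, adjusted p = 0.0117), MAP3K14, a kinase of non-canonical NF-kB signalling, fell (-0.55, adjusted p = 0.0479) and 7 did not pass. MAP3K14 did not pass in any fit with 1 library left out (adjusted p 0.0519 to 0.188). GADD45B ranged there from an adjusted p of 0.0246 to 0.0748. All adjusted p-values are from limma.

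Regulators of TOP translation and growth control held 0 calls among 13 tested genes, with a median of -0.18, beside 7.45% of all tested genes called. At that share, 0 calls among 13 genes say little about the list. At an unadjusted p under 0.05 in limma 2 were higher and 3 lower, with no share over all genes given for that cut. In trend-corrected values 1 rose and 1 fell, with a median of -0.08, where 4.69% of all genes were higher and 6.1% lower. By voom on recovered reads 0 were called, beside 677 of 12458 genes. EIF4EBP1, the translation repressor with the highest FPKM of the list, had 451, 334 and 317 FPKM in sh-CFB against 288, 326 and 371 in sh-NC and stood at 0.15 (adjusted p = 0.600 with limma) as deposited and at -0.10 when trend-corrected. Nuclear long non-coding RNAs held 0 calls among 7, with a median of 0.13, 0 at an unadjusted p under 0.05 in limma and 0 by voom on recovered reads. With 3.01% of the tested long non-coding genes called, 0 among 7 says little either.

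The counts of genes that fell in these lists depended on single libraries. Without sh-NC replicate 2 they were 0 in the protein-coding hosts and in the core, assembly, nonsense-mediated decay and exosome lists. Without sh-CFB replicate 2 they were 1, 1, 0, 0 and 0 in the same order, while over all genes 20 and 39 calls were left of 929. With median-of-ratios factors the counts were 3, 2, 2, 1 and 1. NOP56 and DKC1 stand in both the host and the core list.

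**Figure D4:**
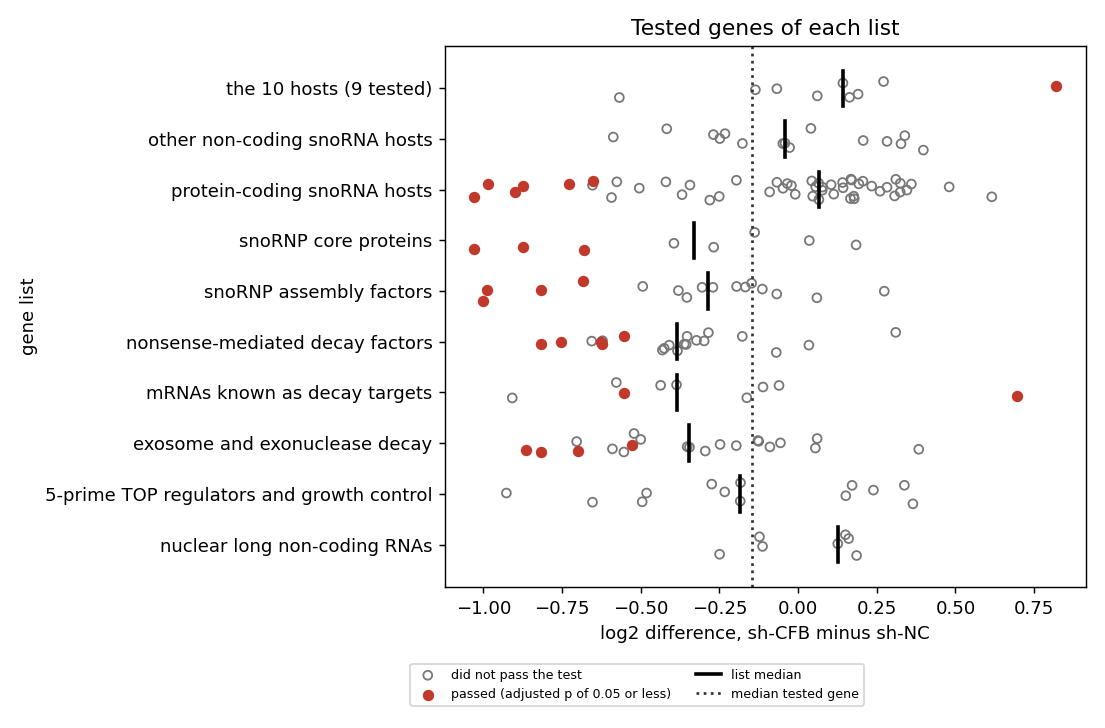
Log2 difference (sh-CFB minus sh-NC) of each tested gene in the host set and the other lists; filled red points passed the test, open points did not, black bars are list medians and the dotted line the median tested gene. The only filled point of the 9 tested hosts is SNHG7 at 0.82, and the filled points of the other lists lie below 0, except GADD45B at 0.70 among the decay targets.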

How the data were processed

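RNA of 6 NCI-H1299 libraries, 3 sh-CFB and 3 sh-NC, was sequenced after poly(A) selection with a kit that marks strand, per the labels' protocols. The values are FPKM, made by the authors and deposited as 1 table. The submitters' processing notes name featureCounts 2.0.1, STAR 2.7.3a, Trimmomatic 0.39 and FastQC 0.11.9 and the build GRCh38. For strand setting and annotation release: not given in the sources used here. Reads were recovered from the FPKM steps and came out whole within 0.02 for 99.88% of genes. In the library with 26.2 M reads, 3 reads in a gene of 2000 bases equal 0.0572 FPKM.

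Where the mean FPKM reached 0.5, a gene was tested with limma 3.58.1 (R 4.3.3, intensity trend) on log2(FPKM + 0.5), and p-values were Benjamini-Hochberg adjusted across every tested gene, with a threshold of 0.05. Fold changes on that scale understate changes of low genes. Single genes also had a two-sided exact permutation test. The trend correction for GC content and length fitted splines with 5 degrees of freedom per library, with GC from the longest GENCODE 29 transcript. Other settings were other pseudocounts, filters, scalings, voom on recovered reads, a replicate block and libraries left out. The scripts were tested on simulated data.

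The hosts and gene lists were chosen with earlier results of these data known. Named genes were the hosts, genes that overlap them or start within 2 kb, snoRNA genes inside them, up to 3 genes past the test per list and direction (otherwise the one with the highest mean FPKM), the 5 genes most like the hosts, and CFB.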

Additional observations from a re-analysis of the deposited data

How the results depend on the processing

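The number of hosts past the test, 1 as reported, was 2 with a filter at a mean FPKM of 1 and 2 in trend-corrected values. It was also 2 with both libraries numbered 1 left out (SNHG7 and GAS5), and 0 with median-of-ratios factors. Leaving out 1 library gave 0 to 1. Over all genes, 1062 of 10306 were called with the filter at 1 and 1337 of 12389 in trend-corrected values. Of 12466 genes, 694 were called with both libraries numbered 1 left out and 206 with median-of-ratios factors. With 1 library left out, 20 to 540 of them were called. SNHG7 was higher under all 19 alternatives (0.68 to 1.07, adjusted p with limma 0.0115 to 0.181) and missed the threshold in 7. SNHG12 changed sign to 0.0459 with median-of-ratios factors, 0.0440 with quantile normalization, 0.0431 with voom and median-of-ratios factors, a setting chosen after seeing the data, and 0.0148 with both libraries numbered 1 left out. SNHG15 changed sign to 0.128, 0.0804 and 0.130 under the first 3 of these and to 0.211 when trend-corrected. Leaving out 1 library, GAS5 ranged from -0.0318 (without sh-NC replicate 3) to 0.404 (without sh-CFB replicate 1), with -0.0161 without sh-CFB replicate 3. The cause was not tested.

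Whether the replicate number pairs these libraries is not stated. Deviations of same-numbered libraries from their group means correlated at -0.54, 0.07 and -0.45. Those deviations also carry the GC axis given above, so the correlations cannot decide whether same-numbered libraries were prepared together. With the replicate block 0 of the 929 genes and 0 hosts passed, and with the replicate block and the trend correction 0 hosts passed, with SNHG15 at 0.211. Over all genes, higher and lower calls were 217 and 712 as reported, 68 and 138 with median-of-ratios factors, 465 and 636 with quantile normalization, 581 and 756 when trend-corrected, and 125 and 191 with voom and median-of-ratios factors. SNHG5 had 74 to 169 reads per library, which limits its precision.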
